A study of Mus musculus with 22 samples.

Results

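The cartilage matrix genes described here are 34 genes that encode the collagens, proteoglycans, bridging proteins and small secreted proteins of cartilage, together with enzymes and a transporter that build its sugar chains. They were taken by symbol from a count table of 26202 gene symbols, and 34 of the 34 symbols were present. The RNA came from mouse embryos, either as whole tracheas at E11.5 (days of embryonic development) or as cell populations sorted at E13.5, and each sample pooled 5 tracheas. The E11.5 groups were controls carrying the conditional allele alone (Wnt5a f/f, 5 libraries) and mutants of genotype Dermo1Cre; Wnt5a f/f (4 libraries), in which a Cre recombinase active in mesenchyme deletes the Wnt5a ligand gene and leaves the epithelium untouched. The E13.5 cells were parted by the epithelial surface protein EpCAM and by γSMAeGFP, a green reporter of smooth muscle that all sorted embryos carried. Control epithelium was EpCAM positive, control muscle was GFP positive, and control chondroblasts, the cells that go on to form cartilage, were negative for both (2 libraries each). Chondroblasts of Notum 150/150; γSMAeGFP embryos, which lack function of the secreted Wnt inhibitor Notum, gave 3 libraries. The labels give the sorted controls as Bmp4 f/f or as Notum 300/300, and the columns of the table do not say which is which. The double-negative gate can hold any cell without EpCAM and GFP, so chondroblasts are an enriched population and not a pure one.

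Cartilage owes its stiffness to a mesh of thin fibrils, in which type II collagen forms the body, type XI collagen the core and type IX collagen the surface, and to aggrecan, a proteoglycan whose sulfated chains hold water. Hyaluronan and link proteins anchor aggrecan, while matrilins and small leucine-rich proteins tie the fibrils to the rest of the matrix. In the trachea these genes are switched on by SOX9 and its partners SOX5 and SOX6 as the ventrolateral mesenchyme condenses into the rings that keep the airway open.

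Levels are given as CPM (counts scaled to library size) and adjusted by TMM factors over the 18 libraries. Total counts ran from 6880665 to 21678194 per library, so that 3 counts, taken as the floor of detection, corresponded to 0.138 to 0.436 CPM. The E11.5 libraries are named by the number in their column name and the sorted ones by the earlier or the later of 2 dates there. All 3 Notum mutant libraries (A, B and C, of which B and C share a number) carry the later date. The control chondroblasts held Sox9 at 218 CPM in the early and 689 CPM in the late library, with the epithelial gene Epcam at no more than 0.657 CPM and the smooth muscle gene Myh11 at no more than 1.92 CPM. Muscle libraries also held Sox9, at 206 CPM early and 456 CPM late, beside Myh11 at 1930 and 1590 CPM. Red cell genes summed to 79000 CPM in the early chondroblast library and to 7980 CPM in the late one. Counts per symbol did not separate the targeted genes by genotype. Wnt5a was at 62.5 to 159 CPM in E11.5 controls and at 46.3 to 126 CPM in Wnt5a mutants. Notum was at 13.7 and 86 CPM in control chondroblasts and at 33.3, 35.3 and 13.7 CPM in Notum mutants A, B and C.

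The summed level of the 34 genes was higher in the chondroblast libraries than in the other 13, while whole tracheas and epithelium overlapped. It took 0.0431% to 0.0681% of all counts in E11.5 controls, 0.0311% to 0.0933% in Wnt5a mutants, 0.0623% and 0.0754% in epithelium, 0.155% and 0.287% in muscle, 0.357% and 0.507% in control chondroblasts and 0.491% to 0.602% in Notum mutant chondroblasts. Within the early date muscle was at 0.155% against 0.507% in chondroblasts, and within the late date at 0.287% against 0.357%. In a bulk sample, fewer cells of a type and less RNA per cell cannot be told apart.

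**Figure D1:**
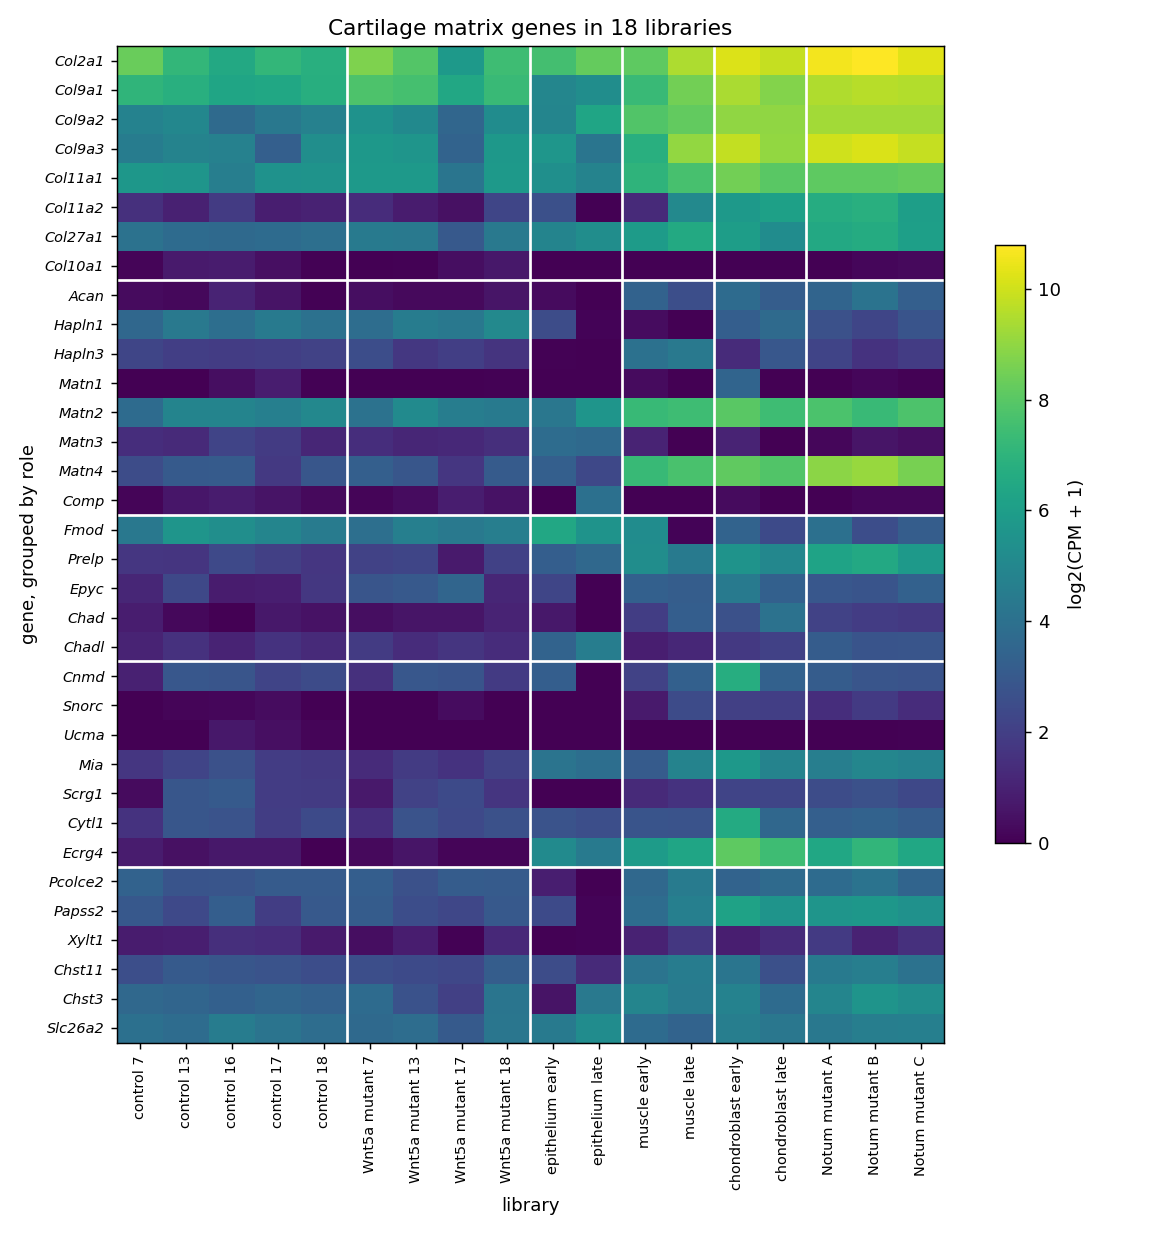
Levels of the 34 genes (rows, grouped by role) in each of the 18 libraries (columns, grouped by condition), as log2(CPM + 1). The bright block of type II and IX collagen genes spans the muscle, control chondroblast and Notum mutant libraries, while Col10a1 and Ucma stay dark throughout.

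Divided by coding length, the order of the genes changed between E11.5 and E13.5. In E11.5 controls Col9a1 led with 37.1 ± 7.45 CPM per kilobase of coding sequence (SD, n = 5), followed by Col2a1 with 36 ± 20.3 and Fmod with 27.8 ± 11, and these 3 neighbours did not differ beyond their spread. Hapln1 came next with 15 ± 3.66 CPM per kilobase. In control chondroblasts Ecrg4 led with 499 ± 165 CPM per kilobase (SD, n = 2), ahead of Col9a3 with 344 ± 122, Col9a2 with 246 ± 0.9, Col2a1 with 237 ± 45.9, Col9a1 with 202 ± 58 and Matn4 with 138 ± 20.1. From Ecrg4 to Col9a1, each gap between neighbours in that order was smaller than the larger SD of the pair. Muscle had the same first 4 genes, with Ecrg4 at 158 ± 32.1 and Col9a3 at 157 ± 145 CPM per kilobase (SD, n = 2). In epithelium Ecrg4 at 61.8 ± 22.3 CPM per kilobase was followed by Fmod at 59.2 ± 26.8 and Col2a1 at 54.7 ± 17.5 (SD, n = 2). Fmod, a small leucine-rich protein of fibrous tissue, thus stood among the first 3 genes at E11.5 and in epithelium but not among the first 6 in chondroblasts or muscle.

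Between control chondroblasts and E11.5 control tracheas, 29 of the 34 genes could be tested, and 19 were higher and 1 lower at an adjusted p under 0.05. Over all genes tested the same call was made for 7.01% in the higher and 5.45% in the lower direction, and the median log2 fold change was 2.97 for the 29 genes against -0.05 for all. Stage and sorting differ together here and cannot be told apart. Airway epithelial marker genes summed to 297 to 466 CPM in the E11.5 controls and to 32.4 and 34.1 CPM in the chondroblasts, and their part in the result was not tested. Without the early chondroblast library the count was 18, with 16 higher, where 22.4% of all genes were called, Cnmd, Cytl1 and Epyc were no longer called, and the median of the members was 2.14. Without the late one the median was 3.40 and Chad and Fmod were no longer called. The members not tested were Col10a1, Matn1, Comp, Ucma and Xylt1.

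The cartilage collagens made up most of the summed level, with 247 to 567 CPM in the 5 E11.5 controls and 3730 and 2750 CPM in the early and late chondroblasts. Each of the 7 that could be tested was higher in chondroblasts than at E11.5. Col2a1, the type II collagen chain, was at 318, 142, 90.6, 142 and 110 CPM in controls 7, 13, 16, 17 and 18 and at 1200 and 910 CPM in the early and late chondroblasts. Both chondroblast libraries lay above the 5 whole tracheas, by 2.73 ± 0.40 on the log2 scale (SE; adjusted p = 0.00482). Type IX collagen is made of 3 chains, which decorate the fibril surface. Col9a1 stood at 131, 110, 80.1, 84.8 and 107 CPM in the same 5 controls and at 672 and 445 CPM in chondroblasts (log2 difference 2.45 ± 0.22, adjusted p = 0.000702). Col9a2 was at 26.8, 31, 12.2, 18.9 and 25.7 CPM against 507 and 510 CPM (4.47 ± 0.29, adjusted p = 0.000151). Col9a3 was at 21.9, 26.9, 25.4, 8.56 and 38.6 CPM against 877 and 525 CPM (4.86 ± 0.45, adjusted p = 0.000706). Per kilobase of coding sequence, the Col9a1 level at E11.5 was 37.1 ± 7.45 against 11.9 ± 5.28 CPM for Col9a3 (SD, n = 5), while in chondroblasts the order was Col9a3, Col9a2, Col9a1. The type XI chain Col11a1 was at 51.8, 48.5, 23.6, 44.1 and 45.4 CPM at E11.5 and at 360 and 256 CPM in chondroblasts (2.85 ± 0.27, adjusted p = 0.000706). Its partner Col11a2 was at 1.8, 0.985, 2.66, 0.898 and 1.07 CPM at E11.5 and at 54.4 and 69.6 CPM in chondroblasts (5.45 ± 0.38, adjusted p = 0.000198). Col27a1, a fibrillar collagen of the growth cartilage, had the smallest difference of the 7, with 15.8, 12.6, 11.9, 12.8 and 14.4 CPM against 62.9 and 36.5 CPM (1.88 ± 0.24, adjusted p = 0.00286). Col10a1, the collagen of hypertrophic cartilage, had 0 counts in the 6 sorted control libraries and at most 0.783 CPM at E11.5, so it was not detectable at this depth in chondroblasts.

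Among the collagens, Col2a1, Col9a1, Col9a2, Col11a1 and Col11a2 were lower in both muscle libraries than in both chondroblast libraries, though none of these differences passed the test. The same separation held for 2903 of the 13687 genes tested. In the early and late muscle libraries Col2a1 was at 277 and 696 CPM, and in epithelium at 189 and 299 CPM, so epithelium and muscle overlapped. Within the early date muscle had 23.1% of the chondroblast level, and within the late date 76.4%. Col9a1 was at 156 and 361 CPM in muscle and at 30.3 and 37.5 CPM in epithelium, and Col11a1 at 128 and 197 CPM in muscle and 40.1 and 26.9 CPM in epithelium. For Col9a2 the values were 232 and 295 CPM in muscle and 28.6 and 78.8 CPM in epithelium. Col9a3 differed between the dates in muscle, with 111 CPM early and 530 CPM late, the latter beside 525 CPM in late chondroblasts, and stood at 50.3 and 17.3 CPM in epithelium. Col11a2 stood at 1.43 CPM in early and 32.6 CPM in late muscle, and at 5.12 and 0 CPM in epithelium. Col27a1 was at 58.7 and 91.5 CPM in muscle and 28 and 38.1 CPM in epithelium, and its muscle mean of 75.1 CPM was above the chondroblast mean of 49.7 CPM. The smooth muscle genes of the marker list summed to 11400 to 14700 CPM in muscle and to 122 to 151 CPM in chondroblasts. The muscle libraries thus held their own markers beside the cartilage collagens. Chondrocyte markers (Sox9, Col2a1, Acan, Sox5 and Sox6) summed to 561 CPM in early and 1240 CPM in late muscle. They summed to 1590 and 1710 CPM in the early and late chondroblasts. Whether muscle cells or chondroblasts within the GFP gate held this RNA was not tested. The early and late muscle libraries also differed in skeletal muscle genes (936 and 58.2 CPM) and red cell genes (13 and 3540 CPM). Macrophage genes differed too (0.416 and 98 CPM), and the part of all these in the muscle values was not tested. Epithelium also held genes of other lists. Fibrous matrix genes, 20 genes of other connective tissue, summed to 1920 CPM in early and 3060 CPM in late epithelium. Macrophage genes summed to 271 and 0 CPM there, and thyroid and parathyroid genes to 185 and 26.1 CPM. Their part in the epithelial values was not tested.

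Windows before the RefSeq start sites are printed for 4 genes whose level was called higher both against E11.5 and against epithelium and whose windows hold at most 16 bases of annotated exons. Each line holds the 250 bases before the start, 5′ to 3′ on the strand of the gene, in build GRCm38.p6. Col9a1 has 2 windows, and the upstream start is the one known from cartilage while the downstream start makes a shorter chain known from the eye. Of the 2 windows of Matn4 the first is shown. Capitals mark any match, on either strand and with overlaps allowed, to the motif CCAAT, the motif GGGCGG, the motif TATAAA, or the SOX protein motifs ACAAAG or AACAAT.
Col9a1 upstream start, chr1:24177360-24177609, plus strand: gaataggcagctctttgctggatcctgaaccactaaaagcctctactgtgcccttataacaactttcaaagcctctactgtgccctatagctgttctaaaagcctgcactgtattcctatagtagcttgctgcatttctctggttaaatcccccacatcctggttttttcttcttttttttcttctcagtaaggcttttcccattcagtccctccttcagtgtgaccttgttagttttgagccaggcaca
Col9a1 downstream start, chr1:24194953-24195202, plus strand: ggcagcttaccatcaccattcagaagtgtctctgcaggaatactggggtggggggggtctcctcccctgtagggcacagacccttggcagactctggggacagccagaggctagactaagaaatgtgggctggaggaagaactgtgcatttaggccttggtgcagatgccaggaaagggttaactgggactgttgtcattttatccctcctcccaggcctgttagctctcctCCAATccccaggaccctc
Col11a1, chr3:114030290-114030539, plus strand: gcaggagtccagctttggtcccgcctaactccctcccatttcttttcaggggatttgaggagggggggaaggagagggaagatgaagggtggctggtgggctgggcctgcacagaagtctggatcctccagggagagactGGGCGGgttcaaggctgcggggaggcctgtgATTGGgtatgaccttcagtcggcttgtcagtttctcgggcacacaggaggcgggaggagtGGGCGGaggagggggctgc
Matn4, chr2:164405161-164405410, minus strand: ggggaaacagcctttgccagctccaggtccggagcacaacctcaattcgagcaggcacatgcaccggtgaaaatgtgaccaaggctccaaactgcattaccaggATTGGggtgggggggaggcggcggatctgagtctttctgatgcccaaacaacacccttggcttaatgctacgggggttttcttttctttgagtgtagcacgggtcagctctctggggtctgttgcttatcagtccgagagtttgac
Ecrg4, chr1:43730352-43730601, plus strand: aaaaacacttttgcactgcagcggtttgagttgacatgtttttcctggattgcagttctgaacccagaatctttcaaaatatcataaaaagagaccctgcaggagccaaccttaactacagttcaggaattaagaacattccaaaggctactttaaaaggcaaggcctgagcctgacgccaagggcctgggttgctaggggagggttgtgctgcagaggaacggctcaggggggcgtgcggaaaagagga
The start sites of these windows are at position 24177610 and 24195203 of chromosome 1 for Col9a1, 114030540 of chromosome 3 for Col11a1, 164405160 of chromosome 2 for Matn4 and 43730602 of chromosome 1 for Ecrg4. Col11a1 held 2 GGGCGG matches and 1 CCAAT match, Matn4 and the downstream Col9a1 window 1 CCAAT match each, and the upstream Col9a1 and Ecrg4 windows had none of the 5 motifs. Of 30 windows for 26 members, 46.7% held GGGCGG, against 32.7% of 32851 windows of all genes. CCAAT was in 26.7% of member windows and 33.8% of all windows, TATAAA in 13.3% and 12.4%, ACAAAG in 13.3% and 16.5%, and AACAAT in 16.7% and 9.42%. These shares are a description of the letters in the windows.

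In the aggrecan network and among the bridging proteins, Matn2, Matn4 and Acan were higher in chondroblasts than at E11.5. Matn4, an oligomeric adaptor of the matrix, was at 4.76, 7.24, 7.51, 2.49 and 6.39 CPM in E11.5 controls 7, 13, 16, 17 and 18 and at 285 and 231 CPM in chondroblasts (5.52 ± 0.35, adjusted p = 0.000137). It was at 151 and 205 CPM in muscle and at 8.71 and 4.1 CPM in epithelium. Matn2, the matrilin of wider tissue range, was at 12.7, 28.1, 27.9, 24.3 and 31.6 CPM at E11.5 and at 256 and 174 CPM in chondroblasts (3.11 ± 0.31, adjusted p = 0.00101). Muscle had 151 and 173 CPM of it and epithelium 18.3 and 48.4 CPM, so for both matrilins the 2 muscle libraries lay above the 2 epithelium libraries. Acan, the core protein of aggrecan, was at no more than 1.1 CPM at E11.5 and at 12.8 and 8.06 CPM in chondroblasts, which was called (4.84 ± 0.82, adjusted p = 0.0084). Muscle held Acan at 9.39 and 5.1 CPM and epithelium at 0.239 and 0 CPM. The link protein Hapln1, which fastens aggrecan to hyaluronan, went the other way in value, with 11.2, 19.6, 13.8, 20.4 and 15.2 CPM at E11.5 and 8.39 and 12.4 CPM in chondroblasts, without passing the test (log2 difference -0.63 ± 0.33, adjusted p = 0.241). Hapln3 was at 1.52 and 6.64 CPM in chondroblasts and at 15.1 and 19.6 CPM in muscle. Matn1, the matrilin of mature cartilage, was detected in chondroblasts of the early library alone, at 9.96 CPM against 0 in the late one, and had 0 counts in both epithelium libraries. Against the floor of 3 counts per library in epithelium, the chondroblast mean, which rests on the early library alone, was at least 25.5-fold higher. Matn3 and Comp, which binds collagens, stayed at or under 1.11 and 0.253 CPM in chondroblasts, while epithelium had Matn3 at 12.9 and 11.8 CPM and Comp at 0 and 15 CPM.

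Among the small leucine-rich and related proteins, Prelp, Epyc and Chad were higher and Fmod lower in chondroblasts than at E11.5. Prelp, which links collagen to heparan sulfate, was at 2.3, 2.2, 4.23, 3.11 and 2.24 CPM at E11.5 and at 46.1 and 30.8 CPM in chondroblasts (3.80 ± 0.32, adjusted p = 0.000504). Its values were 38.5 and 20.6 CPM in muscle and 8.33 and 11.4 CPM in epithelium. Epyc, known as epiphycan, was at 1.25, 4.11, 0.783, 0.898 and 2.34 CPM against 21 and 9.03 CPM (2.97 ± 0.65, adjusted p = 0.0221), and both chondroblast libraries lay above the 5 whole tracheas. Epyc was not called without the early chondroblast library (2.20, adjusted p = 0.0809) or without control 17 (2.79, adjusted p = 0.0557). In muscle Epyc was at 8.91 and 8.19 CPM, and in epithelium at 3.73 and 0 CPM. Chad, a collagen-binding protein of cartilage cells, was at 0.802, 0.174, 0, 0.621 and 0.426 CPM at E11.5 and at 5.36 and 15.6 CPM in chondroblasts (4.58 ± 0.81, adjusted p = 0.01), beside 2.91 and 8.37 CPM in muscle and 0.622 and 0 CPM in epithelium. Without the late chondroblast library its difference was 3.61 (adjusted p = 0.0611). Fmod was the single member called lower. It was at 18.7, 48.4, 39.3, 28.9 and 21.6 CPM at E11.5 and at 9.8 and 4.4 CPM in chondroblasts (-2.13 ± 0.50, adjusted p = 0.0282), and epithelium held 88.2 and 45.4 CPM. The call was lost without the late chondroblast library (-1.68, adjusted p = 0.13), without control 13 (-1.92, adjusted p = 0.0533) and without control 17 (-2.17, adjusted p = 0.0614). Its muscle libraries differed widely, with 37.2 CPM early and 0.063 CPM late. Chadl, a relative of Chad that restrains collagen fibrils, was at 2.48 and 3.28 CPM in chondroblasts, 0.891 and 1.32 CPM in muscle, and 9.77 and 23 CPM in epithelium.

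Among the small secreted and membrane proteins, 5 of the 6 tested were higher in chondroblasts than at E11.5, and 2 of these, Cnmd and Cytl1, differed widely between the chondroblast libraries. Ecrg4, a secreted peptide precursor, had the largest fitted difference of the 29 members tested, with 0.751, 0.406, 0.626, 0.621 and 0 CPM at E11.5 and 273 and 170 CPM in chondroblasts (8.89 ± 0.56, adjusted p = 0.000137). It was at 60 and 80.2 CPM in muscle and at 34.4 and 20.4 CPM in epithelium, all of them above the whole tracheas. Mia, a small protein secreted by cartilage cells, was at 2.25, 3.65, 5.32, 2.83 and 2.5 CPM against 52.8 and 27.2 CPM (3.63 ± 0.38, adjusted p = 0.00133). Its values in muscle were 7.49 and 27.6 CPM and in epithelium 16.5 and 13.8 CPM. Cnmd, or chondromodulin, which keeps vessels out of cartilage, was at 1, 6.55, 6.26, 3.59 and 4.47 CPM at E11.5, at 104 CPM in the early chondroblast library and at 9.18 CPM in the late one. Cytl1, a cytokine-like protein of cartilage, also differed between them, with 1.95, 6.37, 5.79, 2.9 and 4.42 CPM at E11.5 and 94.9 and 11.1 CPM in chondroblasts. Both were called (Cnmd 3.72 ± 0.81, adjusted p = 0.0219, and Cytl1 3.65 ± 0.68, adjusted p = 0.0124), and both calls rested on the early library. Without it the differences were 1.05 (adjusted p = 0.362) and 1.35 (adjusted p = 0.142). Cnmd was also not called without control 17 (3.65, adjusted p = 0.0631) or control 18 (3.74, adjusted p = 0.0527). Muscle had Cnmd at 3.39 and 9 CPM and Cytl1 at 5.88 and 5.73 CPM, and epithelium had them at 8.28 and 0 CPM and at 5.7 and 5.07 CPM. The early library was also the one with the red cell sum of 79000 CPM, and the part of that in these values was not tested. Snorc, a membrane proteoglycan of cartilage, was at 3.13 and 3.06 CPM in chondroblasts and at no more than 0.276 CPM at E11.5 (4.87 ± 1.03, adjusted p = 0.0202), a call lost without control 13 (4.94, adjusted p = 0.051). Muscle held it at 0.713 and 4.47 CPM, and epithelium had 0 counts, which makes chondroblasts at least 15.9-fold higher against the floor. Scrg1 was likewise at 0 in epithelium and at 3.69 and 3.81 CPM in chondroblasts, at least 19.2-fold higher, while E11.5 controls held it at 0.25 to 7.36 CPM. Ucma, a late marker of cartilage, had 0 counts in the control chondroblasts.

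Of the genes for collagen processing and sulfated chains, Papss2 alone of the 5 tested was called against E11.5. Papss2, which makes the sulfate donor for cartilage proteoglycans, was at 6.86, 4.17, 8.45, 2.9 and 7.03 CPM at E11.5 and at 72.5 and 46.8 CPM in chondroblasts (3.36 ± 0.37, adjusted p = 0.00155). It was at 13.2 and 24.5 CPM in muscle and at 4.41 and 0.065 CPM in epithelium. Slc26a2, the sulfate transporter, was at 15, 13, 22.2, 16.6 and 13.6 CPM at E11.5 and at 23.3 and 18.1 CPM in chondroblasts, with 12.6 and 9.89 CPM in muscle and 20.9 and 36.4 CPM in epithelium. Its groups overlapped and the log2 difference from E11.5 was 0.38 ± 0.27 (adjusted p = 0.387). Chst3, a chondroitin sulfotransferase, was at 26.7 and 12.8 CPM in chondroblasts, 28.9 and 21.1 CPM in muscle, and 0.479 and 19.4 CPM in epithelium. Chst11, Pcolce2 and Xylt1 had log2 differences from muscle of -0.80, -0.61 and -0.57, none past the test.

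**Figure D2:**
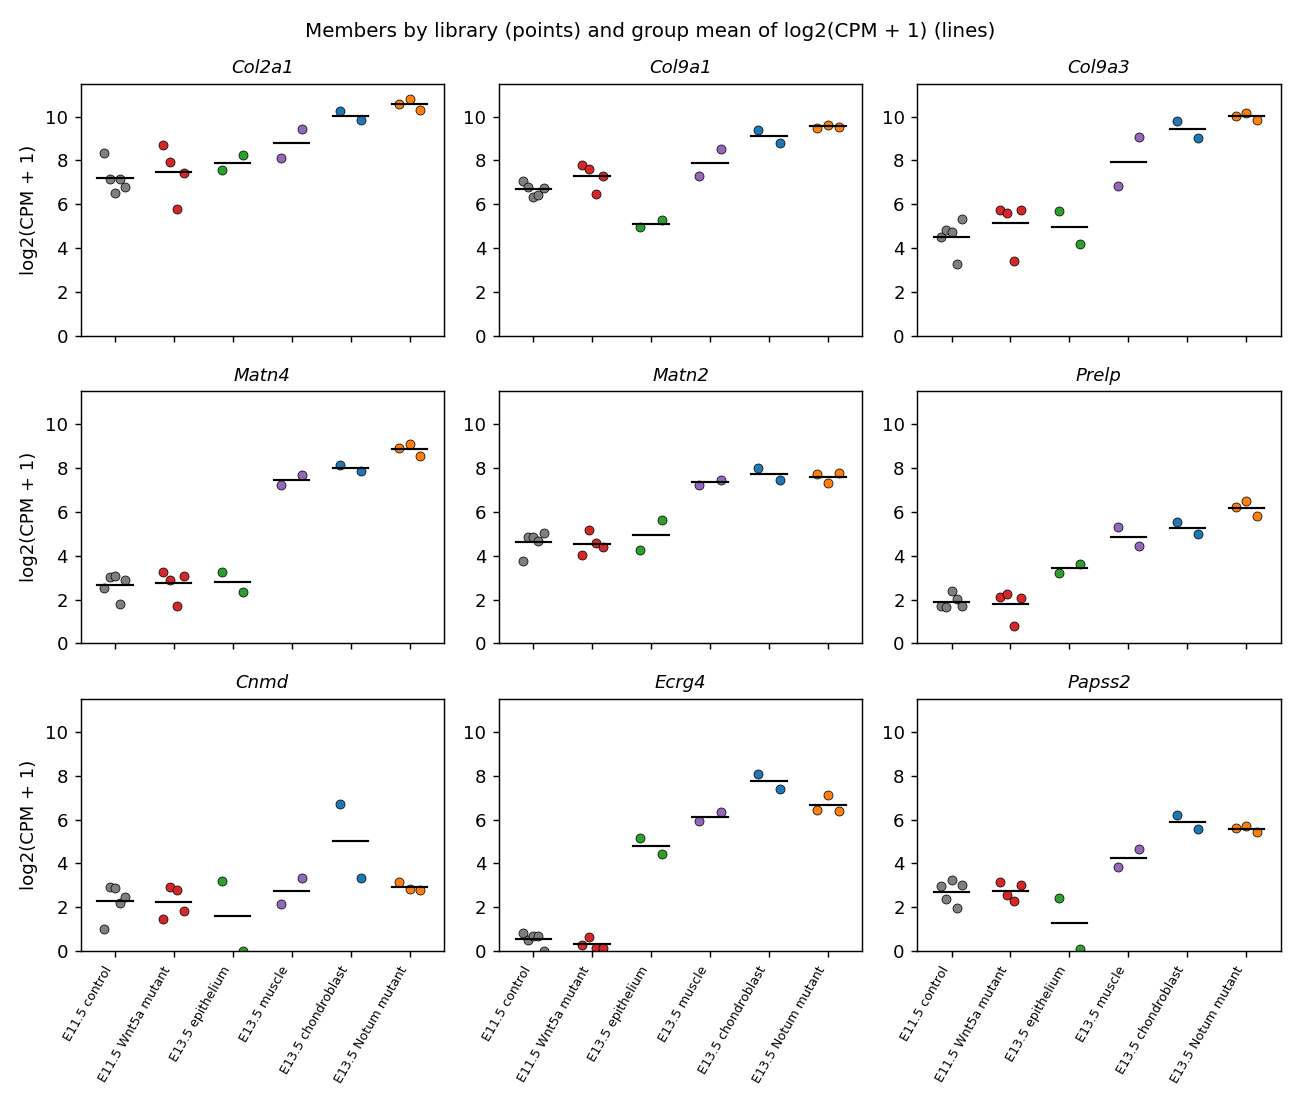
Level of 9 members in each library (points) of the 6 groups, as log2(CPM + 1), with the mean of these log values as a line. Type IX collagen genes, Matn4 and Matn2 step up from whole tracheas and epithelium to muscle and chondroblasts, while Cnmd is high in the early chondroblast library at 104 CPM and at 9.18 CPM in the late one.

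Tests among the sorted control populations found differences from epithelium and few between chondroblasts and muscle. Of the 30 members tested, 6 were higher in chondroblasts than in epithelium and 0 lower at an adjusted p under 0.05, against 1.72% higher and 1.02% lower of all genes tested. They were Col9a1 (log2 difference 4.02 ± 0.46, adjusted p = 0.0129), Col9a2 (3.23 ± 0.47, adjusted p = 0.0246), Col11a1 (3.18 ± 0.35, adjusted p = 0.012), Matn2 (2.67 ± 0.48, adjusted p = 0.0445), Matn4 (5.30 ± 0.45, adjusted p = 0.00751) and Ecrg4 (2.99 ± 0.40, adjusted p = 0.0192). Leaving out the early or the late chondroblast library took the count to 0, where 0.211% and 0.139% of all genes were called, and leaving out the early epithelium library took it to 10, where 7.54% were. In muscle against epithelium 3 members were higher and 0 lower, against 2.41% and 1.17% of all genes, namely Col9a1 (2.92 ± 0.44, adjusted p = 0.0226), Col11a1 (2.27 ± 0.34, adjusted p = 0.0222) and Matn4 (4.77 ± 0.44, adjusted p = 0.00502). That count was 1 without the early chondroblast library or the late muscle library (1.79% and 1.2% of all genes) and 8 without the early epithelium library (8.62%). All 3 were also among the 6 called in chondroblasts, and both comparisons share the epithelium libraries. Of 20 fibrous matrix genes of other connective tissue, 12 were called higher in chondroblasts than in epithelium and 15 in muscle, with 0 lower. The cartilage genes were thus not alone in differing from epithelium. Between chondroblasts and muscle 0 members were called by edgeR, against 0.132% of all genes, 5 had an unadjusted p under 0.05, against 5.79% of all genes, and DESeq2 called 1. With no filter on low counts 7 members were called, all higher in chondroblasts, against 1.51% of all genes, and with all libraries in 1 fit 2 were, against 3.47%. The member called by DESeq2, Ecrg4, was higher in chondroblasts (edgeR 1.65 ± 0.38, adjusted p = 0.448), where DESeq2 called 0.497% of all genes higher and 1.36% lower. The median log2 difference from muscle was 0.88 for the 30 members and 0 for all genes. On simulated counts this comparison also made no calls among genes that had been changed, so the 0 does not show that the levels were alike.

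At E11.5 the cartilage genes of Wnt5a mutants and controls overlapped. By edgeR, 0 of the 25 members tested were called, against 0.0136% of all genes, 2 had an unadjusted p under 0.05, against 4.58% of all genes, and DESeq2 called 0, against 0.273%. The study's own thresholds, an unadjusted p under 0.05 and a fold over 1.5, gave 2 members higher and 0 lower, against 1.19% and 2.53% of all genes. The median log2 fold change was -0.01 for the members and -0.02 for all genes. The groups of 0 members were apart in either direction, against 0.675% of all genes with the mutants higher and 0.511% with the mutants lower. The members not tested were Acan, Chad, Ecrg4, Snorc and Xylt1 beside Col10a1, Matn1, Comp and Ucma, whose levels were near the floor.

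The fitted change of the 7 collagens tested was above 0 in each, from 0.11 to 0.74 with a median of 0.45. Col9a1 was at 218, 193, 86.5 and 157 CPM in Wnt5a mutants 7, 13, 17 and 18, against 131, 110, 84.8 and 107 CPM in the controls of the same number and 80.1 CPM in control 16. Each mutant thus stood above the control with its number, and the log2 fold change was 0.67 ± 0.25 (unadjusted p = 0.0195, adjusted p = 1). That fit was unpaired, and with a replicate block on the number the change was 0.54, under the 1.5-fold threshold. Col2a1 was at 416, 240, 53.6 and 173 CPM in the mutants against 318, 142, 142 and 110 CPM in their controls, higher in 3 of 4 pairs (0.46 ± 0.50, adjusted p = 1). Col9a3 was higher in 4 of 4 pairs, with 52.1, 48.1, 9.77 and 52.6 CPM in the mutants (0.74 ± 0.47, adjusted p = 1). Of the 25 members tested, 3 were higher in 4 of 4 pairs (Col9a1, Col9a3 and Papss2) and 0 were lower in 4 of 4. Some of these pairs were nearly equal, with a mutant to control ratio of 1.02 for Col9a1 in pair 17 and 1.01 for Papss2 in pair 18. The share of all genes higher in 4 of 4 pairs was not computed, so the count cannot be read as an excess. Mutant 17 had the lowest mutant value of each of the 7 collagens. Its fibrous matrix genes, a list of 20 genes of other connective tissue such as Col1a1 and Fn1, summed to 1610 CPM, where the 4 mutants had a median of 4900 CPM. Mutant 17 also stood apart in airway epithelial genes (818 CPM, with a median of 452 CPM in the 4 mutants) and in neural crest, glial and neuronal genes (415 CPM, with a median of 142 CPM), and the part of these in its values was not tested. Without mutant 17 the Col9a1 difference was 0.88 (unadjusted p = 0.0006) and the count of members called was still 0.

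Epyc was the other member past the study's thresholds. It was at 6.11, 6.98, 10.5 and 1.2 CPM in mutants 7, 13, 17 and 18 and at 1.25, 4.11, 0.783, 0.898 and 2.34 CPM in the controls (1.69 ± 0.61, unadjusted p = 0.0187, adjusted p = 1). Mutant 18 lay among the controls and the other 3 mutants lay above them. The difference was 1.31 without mutant 17 (unadjusted p = 0.073) and 1.40 with the replicate block (unadjusted p = 0.0675), neither past the threshold. Hapln1 was at 13.4, 22.4, 18.9 and 32.6 CPM in the mutants and Fmod at 14.5, 24.3, 19.5 and 23.7 CPM, with fitted differences of 0.44 ± 0.27 and -0.61 ± 0.29 that did not pass. Skeletal muscle genes summed to 160 to 215 CPM in the mutants and to 34.9 to 120 CPM in the controls, and their part in these values was not tested. Sox9 was at 256, 76.4, 51.6 and 121 CPM in mutants 7, 13, 17 and 18 and at 245, 114, 75.8 and 113 CPM in the controls of the same number, with 48.8 CPM in control 16 (0.08 ± 0.50, adjusted p = 1).

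**Figure D3:**
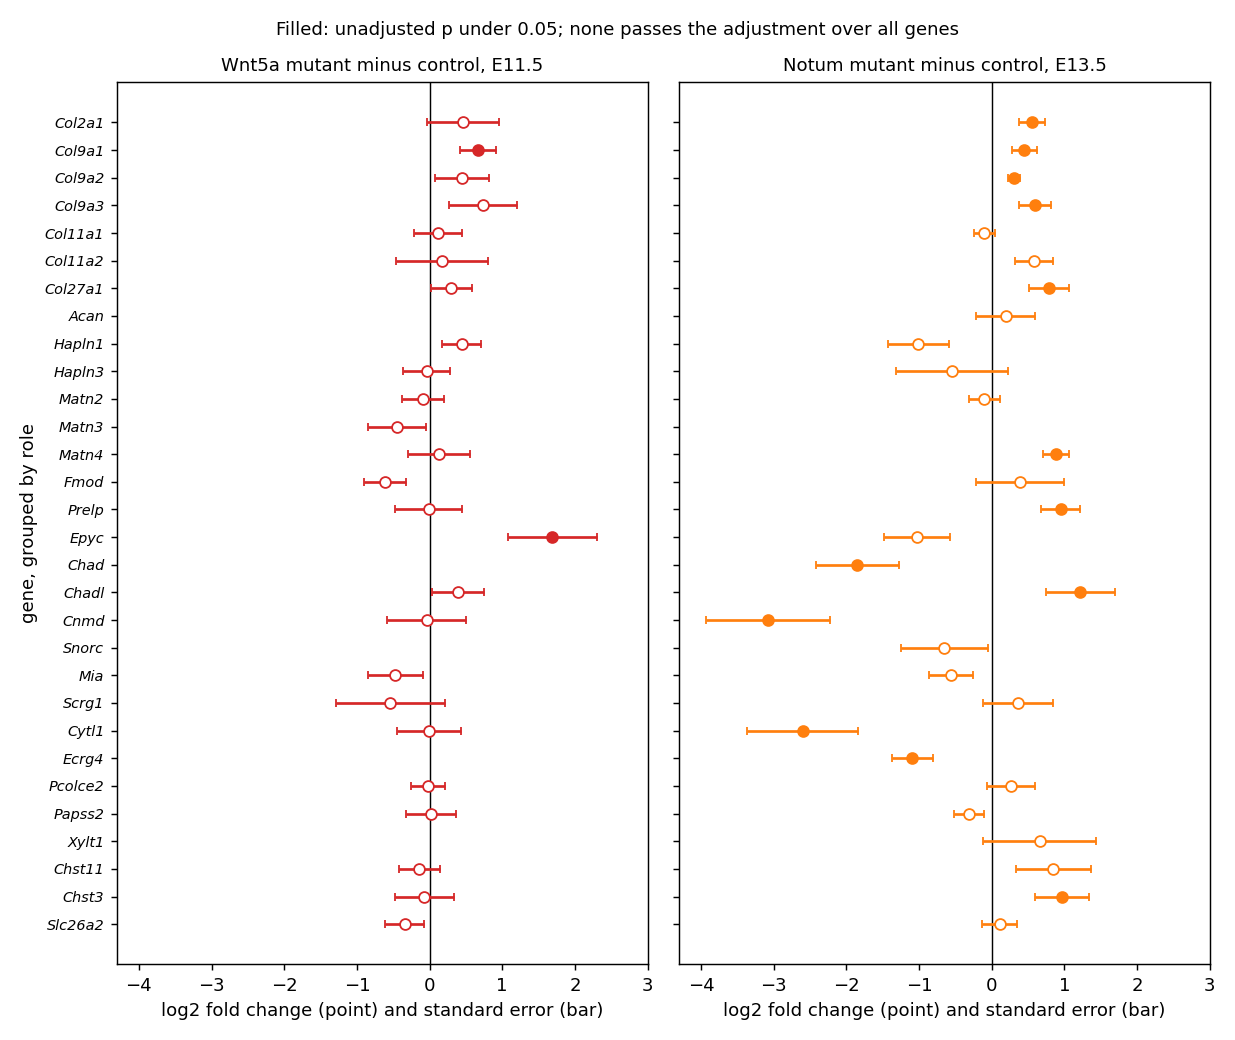
Log2 fold change (point) with its standard error (bar) of each member tested, for Wnt5a mutants against controls at E11.5 (left) and Notum mutants against control chondroblasts at E13.5 (right). Filled points have an unadjusted p under 0.05, which 2 members reach on the left and 13 on the right, and none passes the adjustment over all genes.

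In Notum mutant chondroblasts no member passed the adjustment. Of the 29 members tested, the 3 mutants lay above both controls in 10 and below both in 6, against 16.7% and 17.3% of all genes. The 10 held 5 of the 7 collagens tested, and the 6 held 4 of the 6 small secreted and membrane proteins tested. By edgeR, 0 of 29 members were called, against 0% of all genes, 13 had an unadjusted p under 0.05, against 12.5% of all genes, and DESeq2 called 6, of which 3 were higher and 3 lower, where it called 2.51% and 1.22% of all genes. The study's thresholds gave 6 members higher and 4 lower, against 5.51% and 2.9% of all genes. Among the aggrecan network and bridging proteins, the mutants lay above both controls in 1 of 5 tested and below both in 1. Of the small leucine-rich and related proteins, 2 of 5 lay above and 1 below. Among the genes for collagen processing and sulfated chains it was 1 of 6 above and 0 below. The median log2 fold change was 0.26 for the members and 0.02 for all genes, and it was -0.07 against the early control alone, 0.30 against the late one alone and 0.07 without mutant B.

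Col2a1 was at 1530, 1760 and 1250 CPM in Notum mutants A, B and C, above 1200 and 910 CPM in the early and late controls (0.55 ± 0.18, unadjusted p = 0.0199, adjusted p = 0.33). Col9a1 was at 722, 790 and 733 CPM against 672 and 445 CPM (0.45 ± 0.17, adjusted p = 0.374). Col9a2 was at 623, 625 and 615 CPM against 507 and 510 CPM (0.31 ± 0.08, adjusted p = 0.28). Col9a3 was at 1030, 1160 and 915 CPM against 877 and 525 CPM (0.59 ± 0.22, adjusted p = 0.368). In these 4 fibril genes the 3 mutants lay above both controls, and the early control was the nearer one except for Col9a2, where the 2 controls differed by 3 CPM. Col27a1 was at 90.7, 97.1 and 66.9 CPM against 62.9 and 36.5 CPM (0.79 ± 0.28, adjusted p = 0.339). Col11a1, by contrast, was at 272, 276 and 300 CPM, between its controls at 360 and 256 CPM (-0.10 ± 0.15, adjusted p = 0.816).

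Matn4 had the smallest p of the members. It was at 480, 549 and 379 CPM in the mutants against 285 and 231 CPM (0.89 ± 0.18, unadjusted p = 0.00234, adjusted p = 0.243). Prelp was at 74.3, 89.7 and 55.3 CPM against 46.1 and 30.8 CPM (0.95 ± 0.27, adjusted p = 0.296). Chadl was at 7.73, 5.88 and 6.28 CPM against 2.48 and 3.28 CPM (1.22 ± 0.47, adjusted p = 0.374), and Chst3 at 29.1, 47.5 and 38.3 CPM against 26.7 and 12.8 CPM (0.97 ± 0.37, adjusted p = 0.371). In each of these 4 the mutants stood above both controls, though Chst3 in mutant A was close to the early control. DESeq2 called Matn4, Prelp and Col9a2 higher.

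Cnmd was at 7.82, 6.08 and 5.84 CPM in the mutants against 104 CPM in the early and 9.18 CPM in the late control (-3.08 ± 0.85, adjusted p = 0.29). Cytl1 was at 8.6, 9.34 and 7.79 CPM against 94.9 and 11.1 CPM (-2.60 ± 0.76, adjusted p = 0.306). The mutant mean of Cnmd was 6.3% of the early control but 71.7% of the late one, and that of Cytl1 9.04% and 77.1%. Without the early control the differences were -0.47 (adjusted p = 0.427) and -0.36 (adjusted p = 0.482). For these 2 genes the size of the difference therefore turned on which control library was used. Ecrg4 was at 84.8, 137 and 84.1 CPM against 273 and 170 CPM (-1.09 ± 0.28, adjusted p = 0.27), and was below both controls in each mutant, at 37.4% of the early and 60.2% of the late level. Chad was at 3.32, 2.82 and 2.44 CPM against 5.36 and 15.6 CPM (-1.85 ± 0.57, adjusted p = 0.317), and its difference was -0.89 without the late control. DESeq2 called Cnmd, Cytl1 and Ecrg4 lower.

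The mutants and the early control differ in date. Against the late control alone, 9 of the members were called by edgeR, with 8 higher and 1 lower, where 12.5% and 4.98% of all genes tested were called. A replicate block on the date, in which the late control alone bears on the mutants, also gave 9, against 18.4% of all genes. The 8 were Col2a1 (0.75, adjusted p = 0.0387), Col9a1 (0.76, adjusted p = 0.0123), Col9a3 (0.99, adjusted p = 0.0127), Col27a1 (1.23, adjusted p = 0.0229), Matn4 (1.03, adjusted p = 0.0244), Prelp (1.26, adjusted p = 0.0321), Chst3 (1.59, adjusted p = 0.0254) and Chst11 (1.95, adjusted p = 0.0201), and the one lower was Chad (-2.43, adjusted p = 0.0136). The lone control is assumed to vary like the mutants, whose 3 libraries supply all the spread. Against the early control alone 3 members were called, all lower, where 0.285% of all genes were called higher and 0.452% lower. They were Cnmd (-3.97, adjusted p = 0.000738), Cytl1 (-3.45, adjusted p = 0.000738) and Matn1, which was at 9.96 CPM in that control and at no more than 0.146 CPM in the mutants (adjusted p = 0.0286). Red cell genes summed to 7640 to 10300 CPM in the mutants, near the 7980 CPM of the late control, and macrophage genes to 313 to 461 CPM against 245 CPM in the early and 141 CPM in the late control. The part of either in these values was not tested.

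**Figure D4:**
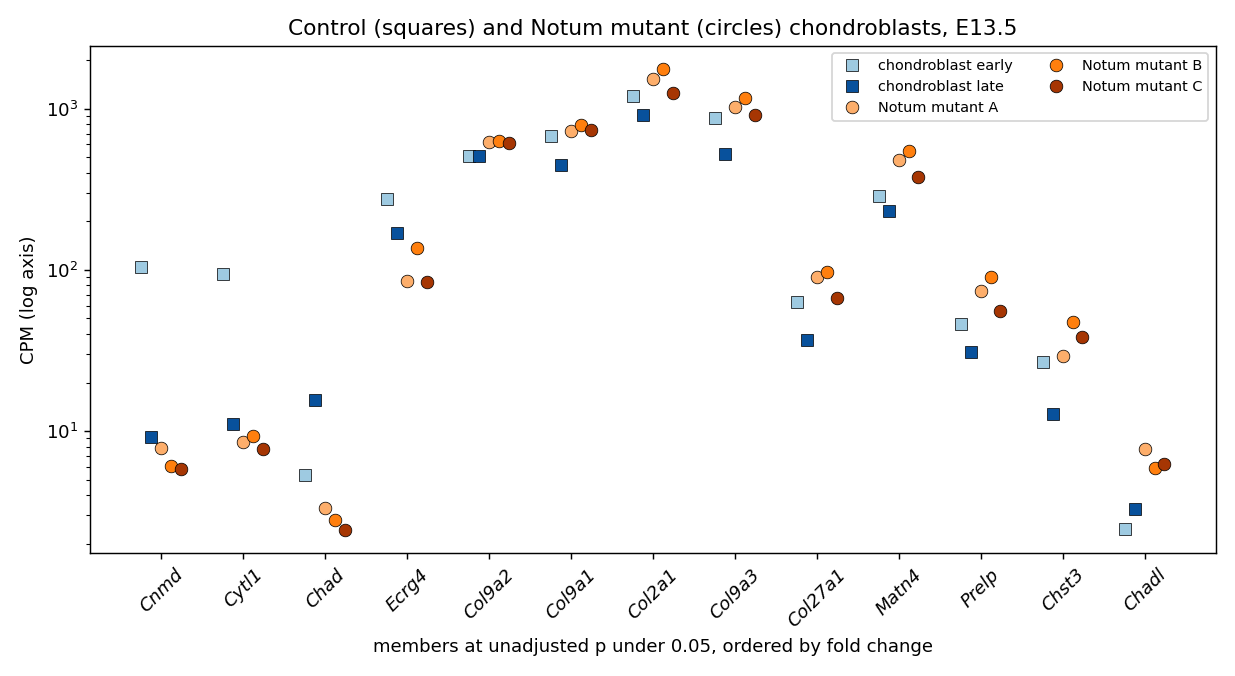
CPM (log axis) of the 13 members with an unadjusted p under 0.05, in the early and late control chondroblasts (squares) and Notum mutants A, B and C (circles). Cnmd and Cytl1 are high in the early control alone, whereas the 3 mutants lie above both controls for Matn4, Prelp and the type II and IX collagen genes.

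Tested against each other in 1 fit, the Notum and Wnt5a effects did not differ for any member at an adjusted p under 0.05. By edgeR 0 of 30 were called, against 0.0198% of all genes, 5 had an unadjusted p under 0.05, against 10.3% of all genes, and DESeq2 called 0, against 2%. The 5 were Hapln1 (-1.47 ± 0.46, adjusted p = 0.282), Epyc (-2.74 ± 0.93, adjusted p = 0.317), Chad (-2.38 ± 0.98, adjusted p = 0.413), Cnmd (-3.08 ± 1.02, adjusted p = 0.309) and Cytl1 (-2.63 ± 0.85, adjusted p = 0.297), each with a lower Notum effect. For the collagens the difference of effects ran from -0.25 to 0.47. For Col9a1 the fitted change was 0.67 ± 0.25 in Wnt5a mutants and 0.45 ± 0.17 in Notum mutants, and the difference was -0.25 ± 0.39 (adjusted p = 0.885).

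The regulators of cartilage and the fibrous matrix genes give the setting of these values. Of 18 regulators tested by edgeR in Notum mutants, 0 were called, and 8 had an unadjusted p under 0.05, against 12.5% of all genes. The study's thresholds gave 5 regulators higher and 2 lower, against 5.51% and 2.9% of all genes. Sox5 and Sox6 had unadjusted p-values of 0.00687 and 0.00406. Sox5 was at 131, 118 and 107 CPM against 83.3 and 54.5 CPM in the early and late controls (0.81 ± 0.20, adjusted p = 0.27), and Sox6 at 120, 150 and 114 CPM against 78.2 and 48.4 CPM (1.04 ± 0.24, adjusted p = 0.256). Sox9 was at 620, 687 and 520 CPM against 218 and 689 CPM, overlapping the controls (0.44 ± 0.45, adjusted p = 0.715). The 20 fibrous matrix genes had a median log2 fold change of -0.18 in Notum mutants, against 0.55 for the 7 cartilage collagens tested and 0.02 for all genes. In Wnt5a mutants the 20 fibrous genes had a median of 0.05 and 0 were called. Against E11.5, 16 of the 20 fibrous matrix genes were higher in chondroblasts and 0 lower, so the cartilage genes were not alone in that difference, and their median of 2.97 stood beside 2.10 for the fibrous genes.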

How the data were processed

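The authors deposited estimated counts (53.4% of the values are fractions) in a single table of 47248 rows that carry a gene symbol, not normalized and with each library in its own column. Per the submitters' processing notes, mm10 was the build and Partek and limma were among the tools, while the study's methods name DESeq2. The counting tool is not given in the sources used here, so it is uncertain how reads of paralogs or overlapping genes were assigned. Of 22 columns, 18 matched 1 group by name and 4 were not used. The labels list 3, 3, 3 and 4 samples for the sorted groups, which have 2, 2, 2 and 3 libraries here. The methods give sorted samples as pools per litter and say that several litters of each genotype were studied. They do not tie single libraries to litters, so p-values measure the spread between these samples.

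Rows of a symbol were summed and rounded. A gene was tested where over 50% of the libraries in some group reached 1 CPM, in place of the study's FPKM criterion, with edgeR 4.0.16 (R 4.3.3), by the 2-sided quasi-likelihood test with TMM factors and Benjamini-Hochberg adjustment. The SE was taken as |log2 fold change| / sqrt(F). The 3 sorted control populations shared 1 fit. The comparisons of Wnt5a mutants, of Notum mutants, of chondroblasts with muscle and of chondroblasts with E11.5 were tested on simulated counts. They returned the planted fold changes, but no calls were made between chondroblasts and muscle. The comparisons with epithelium and the difference of the mutant effects were not tested in this way. DESeq2 was version 1.42.0. Total counts of 6880665 to 21678194 set a floor of 3 counts at 0.138 to 0.436 CPM, which covers counting error only, since no molecular identifiers were counted. Coding lengths are those of the longest coding transcript in the GENCODE annotation of the same build, and promoter windows are from RefSeq. At E11.5 the reported fits were unpaired. The number in the column names was taken to pair the libraries in an alternative fit and in the pair counts. The reason was that deviations of same-numbered libraries from their group means correlated at 0.53, 0.192, 0.138 and 0.102. Between a control and a mutant of different numbers the correlations ran from -0.323 to 0.042. The dates of the sorted cells were treated as a batch in alternative fits alone, and the reported fits hold no term for date. Differences of early minus late libraries correlated at -0.047 between epithelium and muscle. The correlation was 0.084 between epithelium and chondroblasts and 0.101 between muscle and chondroblasts.

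The members, role groups, marker lists and thresholds were chosen with earlier results of these data known. Values in every library are given for the 2 members of each role group with the highest mean CPM in control chondroblasts, for members at an adjusted p under 0.05, and for members at an unadjusted p under 0.05 and a fold over 1.5 in a mutant comparison. Other members are given by counts or, where named, were chosen after their values were seen. The GC box and both SOX motifs were added after the windows were seen.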

Additional observations from a re-analysis of the deposited data

Results flagged for a closer look

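In 61 sets of E11.5 values, 5 held a library far from the rest of its group. The cutoff flags about 1 in 20 sets of independent, normally distributed values. These sets come from the same libraries, so the 5 cannot be read as an excess. Col2a1 in control 7 was at 318 CPM, with the nearest control at 142 CPM. Col11a1 in control 16, the library with the fewest counts, was at 23.6 CPM, with the nearest control at 44.1 CPM. Wnt5a mutant 17 gave the other 3, all low, with Col9a3 at 9.77 CPM beside 48.1 CPM in the nearest mutant, Col11a1 at 17.1 CPM beside 54.9 CPM, and Col27a1 at 7.17 CPM beside 19.3 CPM. The causes were not tested.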

How the results depend on the processing

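Limits: the sorted groups have 2 or 3 libraries, 1 library decides several calls, and levels near 3 counts cannot be ranked. Of the counts of members called under an alternative, 82 stayed within 1.5 times the reported one and 20 did not. Of the fitted differences of single called members, 566 kept their side of the threshold, 84 did not, and 0 changed sign. DESeq2 called 6 members in Notum mutants, 1 in chondroblasts against muscle, 17 in chondroblasts against epithelium and 13 in muscle against epithelium, where edgeR called 0, 0, 6 and 3, and DESeq2 called 3.73%, 1.86%, 11.4% and 13.3% of all genes. With no filter on low counts the 3 sorted comparisons gave 7, 15 and 12 (1.51%, 7.27% and 8.05% of all genes), and with all mapped libraries in 1 fit 2, 22 and 20 (3.47%, 19.3% and 23.3%). A replicate block on the date gave 9 in Notum mutants, where it leaves 1 informative control (18.4% of all genes), and 0, 5 and 4 between the sorted populations (0.175%, 2.18% and 2.91%). The paired fit by number at E11.5 gave 0, against 0.00682% of all genes. It took Col9a1 and Epyc under the study's thresholds, as given above. Other members were not followed at those thresholds in the paired fit.

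Leaving out 1 library gave 0 to 9 members in Notum mutants, 0 to 10 in chondroblasts against epithelium, 1 to 8 in muscle against epithelium, 17 to 20 in chondroblasts against E11.5, 0 to 1 for the difference of the mutant effects, and 0 in each fit of Wnt5a mutants and of chondroblasts against muscle. The share of all genes called also moved between these fits, as given above for several of them. The ranges therefore cannot be read as a result about the members alone, and the cause was not tested. Dropping the filter moved the median log2 difference of all genes to -0.47 in chondroblasts against E11.5, from -0.05. CPM without TMM factors moved 3 of 34 chondroblast levels by more than their SD, Col9a2 to 484, Snorc to 2.95 and Scrg1 to 3.57 CPM.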

Other observations

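Among the regulators of cartilage, 4 of the 19 tested had an unadjusted p under 0.05 at E11.5, against 4.58% of all genes, and 0 passed the adjustment (edgeR, adjusted p = 1 for each). They are named here after their values were seen. Barx1, a homeobox gene, was at 2.16, 2.73, 2.61 and 1.14 CPM in Wnt5a mutants 7, 13, 17 and 18 and at 0.313 to 1.17 CPM in the 5 controls (log2 fold change 1.36 ± 0.42). Pax9, a paired box gene of the sclerotome and pharynx, was at 8.48, 10.6, 12.4 and 0.171 CPM against 0.601 to 4.35 CPM (2.38 ± 0.88). Mutant 18 lay among the controls for Barx1 and below them for Pax9, while the other 3 mutants lay above the controls for both. Chrdl1, a BMP antagonist, was at 20.7, 30.5, 29.4 and 29.6 CPM against 10.6 to 27.1 CPM (0.68 ± 0.25), and Sox8 at 8.06, 17.2, 18.6 and 18.5 CPM against 11.1 to 37.8 CPM (-0.79 ± 0.35).

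In Notum mutant chondroblasts Barx1 was at 2.09, 2.43 and 2.05 CPM in A, B and C, below 4.4 and 9.25 CPM in the early and late controls (-1.62 ± 0.56, adjusted p = 0.338). Chrdl1 was at 42.3, 51 and 39.1 CPM, above 27.7 and 26.6 CPM (0.72 ± 0.19, adjusted p = 0.27).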
